A study of Mus musculus with 23 samples.

Results

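CD1d and the receptors that take up cells displaying phosphatidylserine were examined as a set of 8 genes, chosen by symbol from the 47729 genes measured. The set holds the lipid-presenting genes Cd1d1 and Cd1d2, the T cell immunoglobulin and mucin (TIM) genes Timd4, Havcr1 and Havcr2, the receptor tyrosine kinases Mertk and Axl, and the scavenger receptor Cd36. All 8 were found in the files, and all 8 passed the filter on low counts that left 19597 genes for testing. RNA was sequenced from dendritic cells (DCs) that were sorted from spleens of wild type BALB/c mice into 4 subsets named by surface CD8 and CD172 (SIRPα). DC1a cells were CD8hi CD172-, DC1b cells CD8Int CD172+, DC2 cells CD8lo CD172hi and DC3 cells CD8- CD172lo. Mice were either untreated, with 2 pools per subset, or labelled TLI, an abbreviation that the labels leave unexplained, with 4 pools of DC1a, DC1b and DC3 cells and 3 of DC2 cells. Untreated pools and TLI pools 1 and 2 carry batch number 1, TLI pools 3 and 4 carry batch number 2, and a DC2 library of TLI pool 2 was not analysed here. Each library came from pooled mice, whose ages the labels do not give, and p-values measure the spread between pools. The series set out to define DC subsets and to compare the antigens they present, glycolipids among them, and the question here was whether the 8 genes differed among subsets or between TLI and untreated mice.

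CD1d is a cell surface molecule related to MHC class I that displays lipids in place of peptides, and natural killer T cells recognise the lipids it carries. Dying cells expose phosphatidylserine on their outer membrane, and phagocytes bind it either directly, through receptors such as TIM-4, TIM-1, TIM-3 and CD36, or through bridging proteins that are bound by MerTK and Axl. Uptake of dying cells is a known source of antigen for the CD8 positive DCs of the spleen, while MerTK and Axl are best known from macrophages.

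Cd1d1 (ENSMUSG00000028076) lies at chr3:86995834-86999441 on the minus strand of assembly GRCm38, and Cd1d2 (ENSMUSG00000041750) lies beside it at chr3:86986551-86989780 on the plus strand. Cd1d2 is annotated as a polymorphic pseudogene, a gene that is intact in some mouse strains only. The coding sequences of both genes are identical at 972 of 1005 aligned bases (96.7%), and the longest identical run is 242 bases. Of the windows of 1 read length, 76 bases, 19.2% in the Cd1d1 transcript also occur in Cd1d2, and 30.6% in the Cd1d2 transcript also occur in Cd1d1. Reads from such windows could have been given to either gene, so the division of counts between both genes is uncertain. The stretch below covers coding bases 400 to 459, where capitals mark the 8 positions at which the genes differ, and it shows how reads can tell them apart.
Cd1d1: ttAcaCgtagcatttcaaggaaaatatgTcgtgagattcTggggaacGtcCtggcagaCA
Cd1d2: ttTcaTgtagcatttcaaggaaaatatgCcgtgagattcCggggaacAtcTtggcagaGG

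The 3 TIM genes lie in a row on the plus strand of chromosome 11, within 389398 bases. Havcr2 (ENSMUSG00000020399), which encodes TIM-3, is at chr11:46454935-46481255, Havcr1 (ENSMUSG00000040405), which encodes TIM-1, is at chr11:46735080-46779578, and Timd4 (ENSMUSG00000055546), which encodes TIM-4, is at chr11:46810800-46844332. Havcr1 shares 2.20% of its read-length windows with Gm4926 and Timd2, and the other TIM genes share none. Mertk (ENSMUSG00000014361) is at chr2:128698956-128802894 on the plus strand, Axl (ENSMUSG00000002602) at chr7:25757273-25788705 on the minus strand and Cd36 (ENSMUSG00000002944) at chr5:17781690-17888801 on the minus strand, and none of these 3 shares such windows. No exon of the 8 genes overlaps an exon of another gene.

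Axl and Mertk were highest in the same few libraries (values below), so the 250 bases before their starts are shown, from RefSeq on GRCm38.p6, each on the strand of its gene. Capitals mark the GC box, searched as GGGCGG on both strands, which 35.7% of 32851 mouse promoter windows hold. Those windows also run past the start, so the share is not for 250 bases alone. The Mertk stretch, chr2:128698665-128698914, holds 3 and the Axl stretch, chr7:25788734-25788983, holds 1. The same stretch of Cd36, which was not highest in those libraries, holds 2, so the motif is not particular to Axl and Mertk.
Mertk: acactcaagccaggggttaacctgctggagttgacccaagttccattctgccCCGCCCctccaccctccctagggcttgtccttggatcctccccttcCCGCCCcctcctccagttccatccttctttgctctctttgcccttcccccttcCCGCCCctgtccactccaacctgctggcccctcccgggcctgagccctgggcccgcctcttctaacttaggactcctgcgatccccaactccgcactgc
Axl: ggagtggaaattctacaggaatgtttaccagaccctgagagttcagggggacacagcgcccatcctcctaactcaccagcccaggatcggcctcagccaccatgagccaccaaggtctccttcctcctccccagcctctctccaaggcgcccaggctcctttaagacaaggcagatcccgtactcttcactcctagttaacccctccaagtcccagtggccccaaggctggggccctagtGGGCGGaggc

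Total counts per library ran from 19256447 to 36997890 with a median of 27199618. Levels are given as CPM, counts scaled to a common library total, and a gene with 3 counts or fewer was called at the floor, which lay at 0.0811 to 0.156 CPM. Floors cover counting error only, since amplified reads are not independent molecules. The sorts were checked against marker genes. All 5 general DC markers were above the floor in every library, the summed level of 7 cDC1 markers was 2449 to 2685 CPM in untreated DC1a against 210 to 234 CPM in untreated DC2, and that of 6 cDC2 markers was 688 to 745 CPM in untreated DC2 against 10.1 to 15.6 CPM in untreated DC1a. In TLI mice the cDC1 sums were 2734 to 4366 CPM in DC1a against 136 to 304 in DC2. The cDC2 sums were 203 to 712 CPM in TLI DC2 against 8.60 to 10.5 in TLI DC1a. RNA of the sorting markers varied within TLI gates. In TLI DC1b pools 1 to 4 Cd8a measured 302, 342, 79.0 and 0.327 CPM and Sirpa 146, 141, 5.10 and 6.55. Sirpa measured 36.7, 9.22 and 309 CPM in TLI DC2 pools 1, 3 and 4. These values do not measure purity. Several libraries also carried markers of other cells. Summed erythroid and platelet markers reached 19254 to 132793 CPM in the TLI libraries of batch 1, against 56.1 to 2276 CPM in untreated mice and 144 to 7133 CPM in TLI batch 2. Plasmacytoid DC markers summed to 2817 and 3083 CPM in untreated DC1b and to 49.2 to 143 CPM in TLI DC1b. Macrophage markers summed to 2402 and 1996 CPM in TLI DC1b pools 1 and 2 and to 3128 CPM in TLI DC2 pool 1, against at most 339 CPM in untreated libraries. In bulk samples such as these, fewer cells of a type and less RNA per cell cannot be told apart.

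Per kilobase of exon, the mean level over the 23 libraries was highest for Cd36 at 70.7 CPM per kb, followed by Havcr2 at 63.9 and Cd1d1 at 33.6 CPM per kb. Cd1d2 at 6.89, Havcr1 at 4.80, Timd4 at 4.69, Axl at 2.02 and Mertk at 0.961 CPM per kb were lower. Cd1d1, Havcr2 and Cd36 were above the floor in all 23 libraries. Cd1d2 was at the floor in 2 libraries, Timd4 in 6, Havcr1 in 7, Axl in 7 and Mertk in 14.

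**Figure D1:**
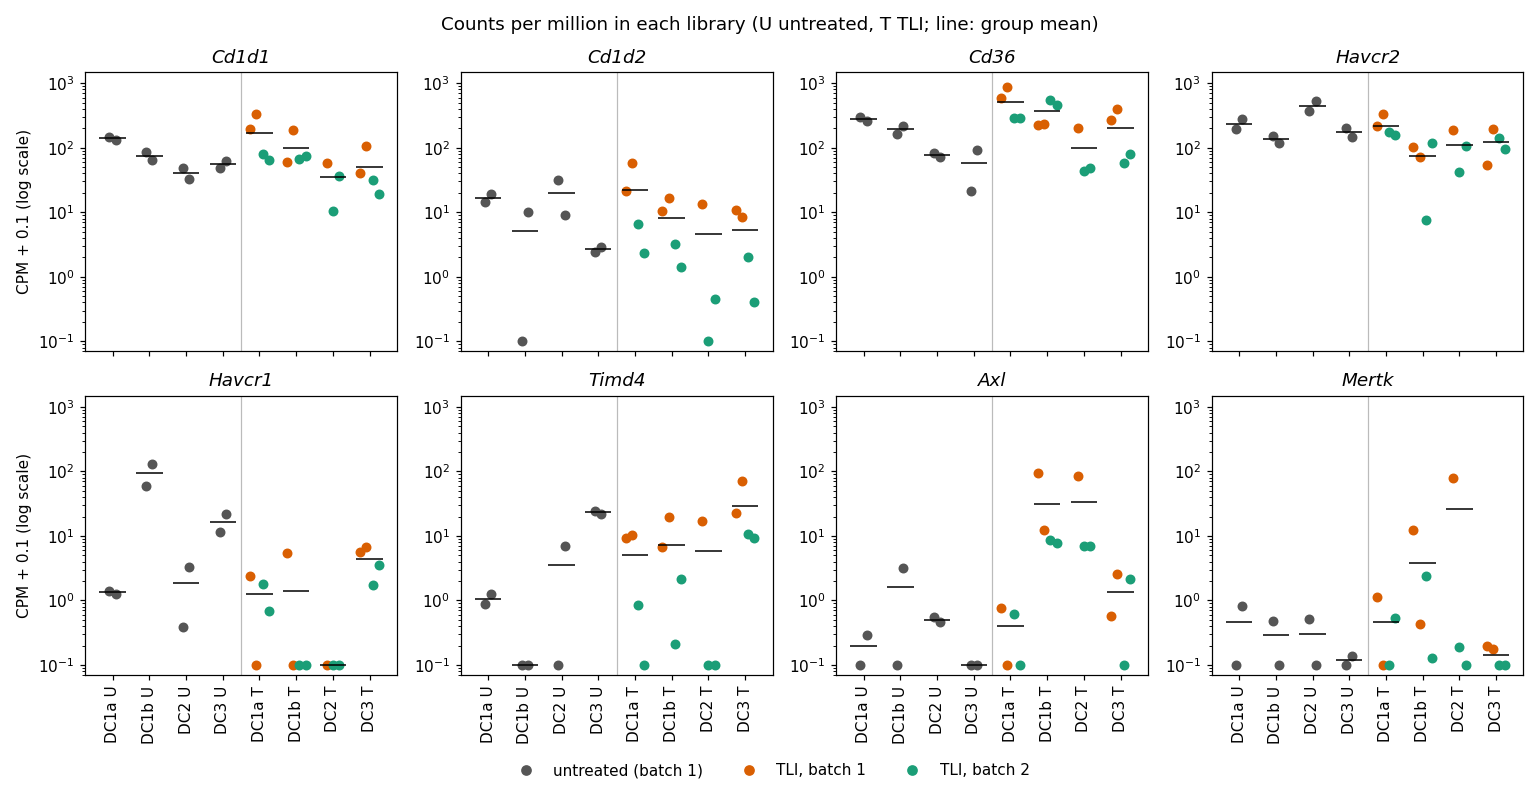
Level of each of the 8 genes in each of the 23 libraries, as CPM plus 0.1 on a log axis, with subsets of untreated (U) and TLI (T) mice along the horizontal axis. Points are libraries coloured by treatment and batch, and lines are group means. Among untreated libraries Cd1d1 and Cd36 lie highest in DC1a, at 131 to 149 and 256 to 299.8 CPM. Over all libraries both peak in TLI DC1a pool 2, at 329.9 and 887 CPM, while Havcr1 lies highest in untreated DC1b at 59.1 and 129.7 CPM.

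Cd1d1 encodes the main CD1d heavy chain of the mouse. Its RNA level was highest in DC1a cells of both treatments, and the order of group means was DC1a, DC1b, DC3 and DC2 in both. The values are RNA levels, and surface protein was not measured in these files. In untreated mice Cd1d1 measured 149 and 131 CPM in DC1a, 85.1 and 65.6 in DC1b, 48.6 and 61.3 in DC3, and 47.8 and 33.1 in DC2. Both DC1a libraries lay above all other untreated libraries, both DC1b libraries lay above both DC3 and DC2 libraries, and DC3 and DC2 did not overlap only because 48.6 exceeded 47.8. Group means in untreated mice were 139.7 ± 12.9 (SD, n = 2), 75.4 ± 13.8, 54.9 ± 9.01 and 40.4 ± 10.4 CPM, a 3.45-fold range. In TLI mice, with pools 1 and 2 of batch 1 before pools 3 and 4 of batch 2, Cd1d1 measured 197, 329.9, 80.4 and 65.3 CPM in DC1a and 59.98, 189.6, 67.0 and 74.6 in DC1b. It measured 40.2, 108, 31.1 and 18.99 CPM in TLI DC3, and 57.6, 10.5 and 35.9 in DC2 pools 1, 3 and 4. Every TLI DC1a library lay above every TLI DC2 library, while DC1a overlapped with DC1b and with DC3.

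Differences were tested in 1 edgeR quasi-likelihood fit of the 23 libraries with a term for batch, and adjusted p-values are over the 19597 genes. Among the 4 TLI subsets, Cd1d1 passed the test (adjusted p = 0.0117) as 1 of the 8 genes, beside 3.22% of all genes. Cd1d1 was lower in TLI DC2 than in TLI DC1a by 2.24 on the log2 scale (fitted log2 difference -2.24, SE 0.47, adjusted p = 0.0124), in a comparison that called 3.40% of all genes and 1.30% as lower in DC2. It was lower in TLI DC3 than in TLI DC1a as well (-1.94, SE 0.42, adjusted p = 0.0372), where 0.750% of all genes were called and 0.367% as lower in DC3. Within batch 1 the means were 57.6 CPM in DC2 and 73.9 in DC3 against 264 in DC1a, which is 4.57-fold and 3.57-fold lower, and within batch 2 they were 23.2 and 25.0 against 72.9 CPM, which is 3.14-fold and 2.91-fold lower, with no overlap in either batch. Tested on batch 1 alone, the adjusted p was 0.359 among subsets, 0.289 for DC2 and 0.534 for DC3. Without the batch term these were 0.105, 0.0706 and 0.311. Leaving out TLI DC2 pool 1 or pool 3 raised the adjusted p of the DC2 difference to 0.067 and 0.0554. The DC3 difference passed in 6 of 23 fits that left out a library, with adjusted p from 0.0147 to 0.142, and in separate fits per treatment its adjusted p was 0.109.

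The difference between TLI DC1b and DC1a did not pass (-0.64, SE 0.41, adjusted p = 0.520), nor did those of DC2 from DC1b (-1.60, SE 0.46, adjusted p = 0.242) and of DC3 from DC1b (-1.30, SE 0.41, adjusted p = 0.189). In batch 1 the DC1b mean of Cd1d1 was 2.11-fold below the DC1a mean, and in batch 2 they were 70.8 and 72.9 CPM and overlapped. Among untreated subsets 0 of the 8 genes passed with edgeR, 3 had an unadjusted p under 0.05 and 2 passed with DESeq2, beside 2.37% of all genes called by edgeR and 12.0% by DESeq2. Of the 48 tests of a member in a pair of untreated subsets 0 passed, 10 had an unadjusted p under 0.05 and 4 passed with DESeq2. At an unadjusted p under 0.05 were 7.47% to 13.1% of all genes in these pairs. For tests over all 4 subsets that share is not given, here or for the lists below. Of all genes, edgeR called 0.837% between DC1b and DC1a, 1.91% between DC2 and DC1a, 0.398% between DC2 and DC1b, 0.184% between DC3 and DC1a, 0.393% between DC3 and DC1b and 0.837% between DC3 and DC2 of untreated mice. In the same order DESeq2 called 6.69%, 10.9%, 5.93%, 4.60%, 5.35% and 8.47% of its genes. For Cd1d1 the fitted difference of untreated DC2 from DC1a was close in size to that in TLI mice (-1.99, SE 0.59, adjusted p = 0.107), and it passed with DESeq2 (adjusted p = 0.0134) and in a fit of the untreated libraries alone (adjusted p = 0.0385). The fitted difference of DC1b from DC1a in untreated mice was -1.19 (SE 0.58, adjusted p = 0.475).

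Cd1d2 was the scarcer of the CD1d genes, at 0% to 39.4% of the counts of both with a median of 7.58%. In untreated mice it measured 14.2 and 18.9 CPM in DC1a, 0 and 10.1 in DC1b, 31.1 and 8.83 in DC2, and 2.32 and 2.82 in DC3. In TLI mice it measured 21.1, 57.2, 6.59 and 2.20 CPM in DC1a, 10.5, 16.8, 3.07 and 1.34 in DC1b, 10.7, 8.27, 1.93 and 0.313 in DC3, and 13.4, 0 and 0.345 in DC2. In each TLI subset with both batches, the libraries of batch 1 lay above those of batch 2. No comparison of Cd1d2 passed with edgeR, while DESeq2 called it lower in TLI DC2 than in TLI DC1a (adjusted p = 0.0416).

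Cd36 encodes a scavenger receptor for oxidised lipids, fatty acids and phosphatidylserine. It was highest in DC1a cells, with 299.8 and 256 CPM in untreated DC1a, 165 and 219 in DC1b, 83.2 and 71.4 in DC2, and 20.9 and 93.4 in DC3. Untreated DC1a and DC1b libraries lay above all untreated DC2 and DC3 libraries. In TLI mice Cd36 measured 590.5, 887, 288 and 289 CPM in DC1a and 228, 233, 549 and 463 in DC1b. It measured 265, 404, 57.5 and 80.3 CPM in TLI DC3, and 204, 42.8 and 49.3 in TLI DC2. All TLI DC1a libraries lay above all TLI DC2 libraries, and the other TLI subsets overlapped with DC1a.

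Cd36 was lower in TLI DC2 than in TLI DC1a (-2.64, SE 0.66, adjusted p = 0.0335), which made 2 of the 8 genes lower in that comparison. With the pool added as a block the difference was -2.60 and no longer passed (adjusted p = 0.0838). Within batch 1 the DC2 library was 3.63-fold below the DC1a mean, 204 against 739 CPM, and within batch 2 the DC2 mean was 6.27-fold below, 46.0 against 288 CPM. The call was also lost without any 1 of the 4 TLI DC1a libraries or without TLI DC2 pool 3 or 4 (adjusted p from 0.0556 to 0.127), in batch 1 alone (adjusted p = 0.392), without the batch term (adjusted p = 0.0854) and in separate fits (adjusted p = 0.0509). The position of TLI DC1b against DC1a turned between batches. Its mean was 3.21-fold lower in batch 1, 230.4 against 739 CPM, and 1.76-fold higher in batch 2, 506 against 288 CPM. Of the 48 tests of a member in a pair of TLI subsets 3 passed, the pair for Cd1d1 and this one, beside 1.42% of all genes between DC1b and DC1a, 0.214% between DC2 and DC1b, 1.11% between DC3 and DC1b and 1.37% between DC3 and DC2, where no member passed. With DESeq2 15 of the 48 passed, beside 5.51% of its genes between DC2 and DC1b, 5.57% between DC3 and DC1a, 6.88% between DC3 and DC1b, 8.46% between DC3 and DC2, and 7.73% and 13.8% for DC1b and DC2 against DC1a. With edgeR 20 of the 48 had an unadjusted p under 0.05, beside 10.4% to 17.7% of all genes in these pairs. Over the 4 TLI subsets together Cd36 had an adjusted p of 0.0523, and 9 of 31 alternatives passed. In untreated mice the differences of Cd36 from DC1a were -2.05 in DC2 (SE 0.81, adjusted p = 0.277) and -2.52 in DC3 (SE 0.83, adjusted p = 0.459).

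**Figure D2:**
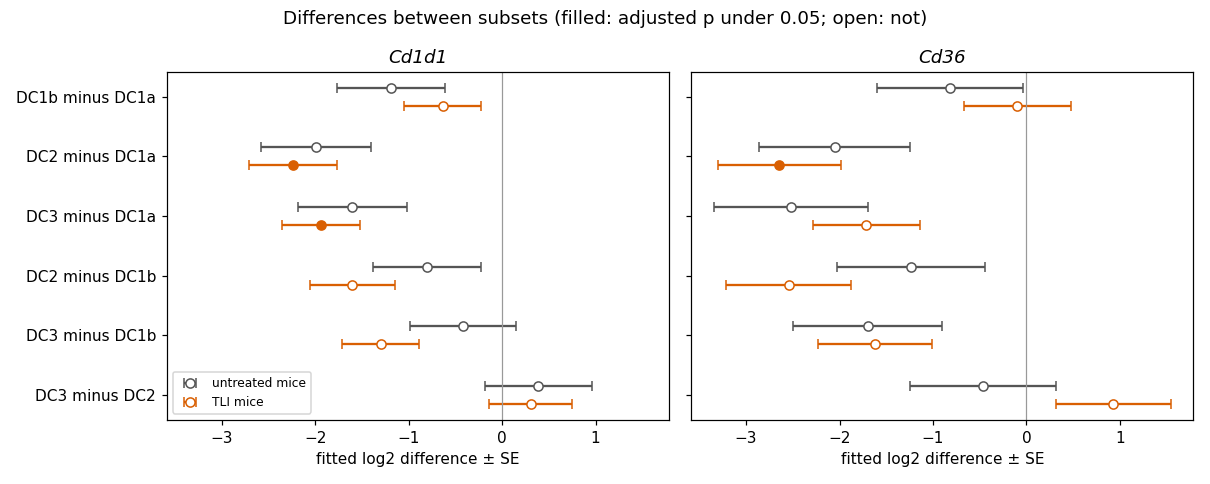
Fitted log2 differences between pairs of subsets for Cd1d1 and Cd36, in untreated (grey) and TLI mice (orange), with bars of 1 standard error. Filled points passed the test at an adjusted p under 0.05: Cd1d1 of DC2 and DC3 against DC1a (-2.24 and -1.94) and Cd36 of DC2 against DC1a (-2.64), all in TLI mice.

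Havcr2, which encodes TIM-3, an inhibitory receptor that DCs are known to carry, was above the floor in every library. In untreated mice it measured 374 and 526 CPM in DC2, 192 and 283 in DC1a, 205 and 146 in DC3, and 152 and 118 in DC1b. Both untreated DC2 libraries lay above all others. The untreated DC2 mean, 450.3 ± 107 CPM (SD, n = 2), was 3.34-fold the DC1b mean, and the fitted difference did not pass (1.82, SE 0.82, adjusted p = 0.515). In TLI mice Havcr2 measured 217, 334, 173 and 156 CPM in DC1a, 102, 72.2, 7.48 and 118 in DC1b, 54.8, 192, 143 and 95.3 in DC3, and 190.5, 41.4 and 105 in DC2. The order changed from DC2 first in untreated mice to DC1a first in TLI mice. All TLI DC1a libraries lay above all TLI DC1b libraries, a 2.93-fold difference of means that did not pass (-1.59, SE 0.57, adjusted p = 0.229).

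Havcr1, which encodes TIM-1, was highest in untreated DC1b at 59.1 and 129.7 CPM. Untreated DC3 measured 11.2 and 21.9 CPM, DC1a 1.32 and 1.16, and DC2 0.285 and 3.22, so that both DC1b libraries lay above all other libraries of either treatment. The untreated DC1b mean was 76.1-fold that of DC1a, 53.9-fold that of DC2 and 5.69-fold that of DC3. In TLI mice Havcr1 measured 5.29 CPM in DC1b pool 1 and 0 in DC1b pools 2, 3 and 4, 0 in all 3 DC2 libraries, 2.32, 0, 1.70 and 0.598 in DC1a, and 5.59, 6.72, 1.62 and 3.47 in DC3. The untreated DC1b libraries were also those with plasmacytoid DC markers, of which Siglech measured 1159.5 and 1858 CPM there and 0.268 to 31.2 CPM in TLI DC1b. Untreated DC3 held the next highest sums of these markers, 234 and 160.5 CPM. The part of plasmacytoid DCs in the Havcr1 level was not tested.

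Timd4, which encodes TIM-4, a tethering receptor for phosphatidylserine, was highest in DC3 cells. Untreated DC3 measured 24.6 and 21.8 CPM against 0.767 and 1.16 in DC1a, 0 and 0 in DC1b, and 0 and 6.85 in DC2. The untreated DC3 mean was 24.1-fold that of DC1a, 6.77-fold that of DC2 and at least 164-fold that of DC1b, whose libraries were at the floor. TLI DC3 measured 22.8, 71.6, 10.5 and 9.08 CPM. TLI DC1a measured 9.28, 10.1, 0.757 and 0 CPM, DC1b 6.54, 19.5, 0.111 and 2.08, and DC2 16.97, 0 and 0. With edgeR, Timd4 did not pass among untreated subsets (adjusted p = 0.219) or in any pair. DESeq2 called it among untreated subsets (adjusted p = 0.0228), and in untreated DC3 (adjusted p = 0.000393) and DC2 (adjusted p = 0.0142) against DC1b. Among untreated libraries DC3 also held the highest sums of B cell markers, 307 and 127 CPM, and of T and NK cell markers, 177 and 181 CPM with Cd3e at 0, and TLI DC3 held 2595 and 789.7 CPM of the latter in pools 1 and 2 and 29.2 and 74.5 CPM in pools 3 and 4. Their part in the Timd4 level was not tested.

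Axl, a receptor tyrosine kinase that binds phosphatidylserine through Gas6, was near the floor outside TLI DC1b and DC2 cells. TLI DC1b measured 96.0, 12.5, 8.58 and 7.62 CPM, and TLI DC2 85.3, 6.81 and 6.79. The other TLI libraries measured at most 2.51 CPM, and untreated libraries at most 3.04, in DC1b pool 2. Every TLI DC1b and DC2 library therefore lay above every other library. The TLI DC1b mean was 106-fold that of TLI DC1a and 24.8-fold that of TLI DC3, and the TLI DC2 mean was 26.2-fold that of TLI DC3. Without pool 1 of the higher group these folds were 32.3, 7.59 and 5.40. Against TLI DC1a, DC1b was 162-fold higher in batch 1 and 31.5-fold higher in batch 2, and DC2 was 255-fold and 26.5-fold higher. TLI DC1a measured 0.668, 0, 0.514 and 0 CPM, with 2 libraries at the floor, so the size of every fold against it is uncertain. The batch 1 value of DC2 is from 1 library. Neither the difference of DC1b from DC1a (6.003, SE 1.99, adjusted p = 0.186) nor that of DC2 from DC1a (5.86, SE 2.01, adjusted p = 0.134) passed, while DESeq2 gave adjusted p of 0.00431 and 0.00966, which called many more genes, as given above.

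Mertk, the related kinase that binds Gas6 and protein S, exceeded 3 CPM in 2 libraries, TLI DC1b pool 1 at 12.2 CPM and TLI DC2 pool 1 at 77.7 CPM. The other TLI DC1b libraries measured 0.330, 2.33 and 0.0298 CPM, the other TLI DC2 libraries 0.0904 and 0, TLI DC1a at most 1.02, TLI DC3 at most 0.0948 and untreated libraries at most 0.733 CPM. No comparison of Mertk passed with edgeR, while DESeq2 called it lower in TLI DC3 than in TLI DC1b (adjusted p = 0.0345) and DC2 (adjusted p = 0.0173).

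The pair of libraries with the highest Axl and Mertk also held the highest sums of the 10 macrophage markers, 2402 CPM in TLI DC1b pool 1, with 7 to 9 markers above the floor across TLI DC1b, and 3128 CPM in TLI DC2 pool 1. In them Spic, a transcription factor of red pulp macrophages, measured 438 and 938 CPM, and C1qb 559.8 and 586 CPM. Marco was at 0 in TLI DC1b pools 1 and 2, and Cd5l was at 2.08 and 10.4 CPM there and at 0 in TLI DC2 pool 1. TLI DC1b pool 2 held 1996 CPM of the same markers with Axl at 12.5 and Mertk at 0.330 CPM. The remaining TLI DC1b and DC2 libraries held 222 to 432 CPM, and untreated DC2, with Axl at 0.448 and 0.364 CPM, held 212 and 339 CPM. Without the pool 1 libraries of TLI DC1b and DC2, a setting chosen after the data were seen, the fitted Axl differences from DC1a were 4.92 in DC1b (adjusted p = 0.337) and 4.41 in DC2 (adjusted p = 0.365), and those of Mertk were 1.86 and -2.36. The 6 monocyte and neutrophil markers summed to 18638, 1729, 1900.3 and 9036 CPM in TLI DC1b and to 2229, 702 and 659.6 CPM in TLI DC2, against 39.2 to 79.4 CPM in TLI DC1a. Untreated DC1b held 1632 and 2476 CPM of these markers, with Axl at 0 and 3.04 CPM and Mertk at 0.377 and 0 CPM. Most of these untreated sums was Ly6c2 alone, at 1480 and 2348 CPM. The neutrophil gene S100a8 measured 5.51 and 0.520 CPM there, against 4580, 268, 1041 and 5005 CPM in TLI DC1b. The untreated sums are therefore not like those of TLI DC1b in make-up. The part of macrophages, monocytes and neutrophils in the Axl and Mertk levels was not tested.

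**Figure D3:**
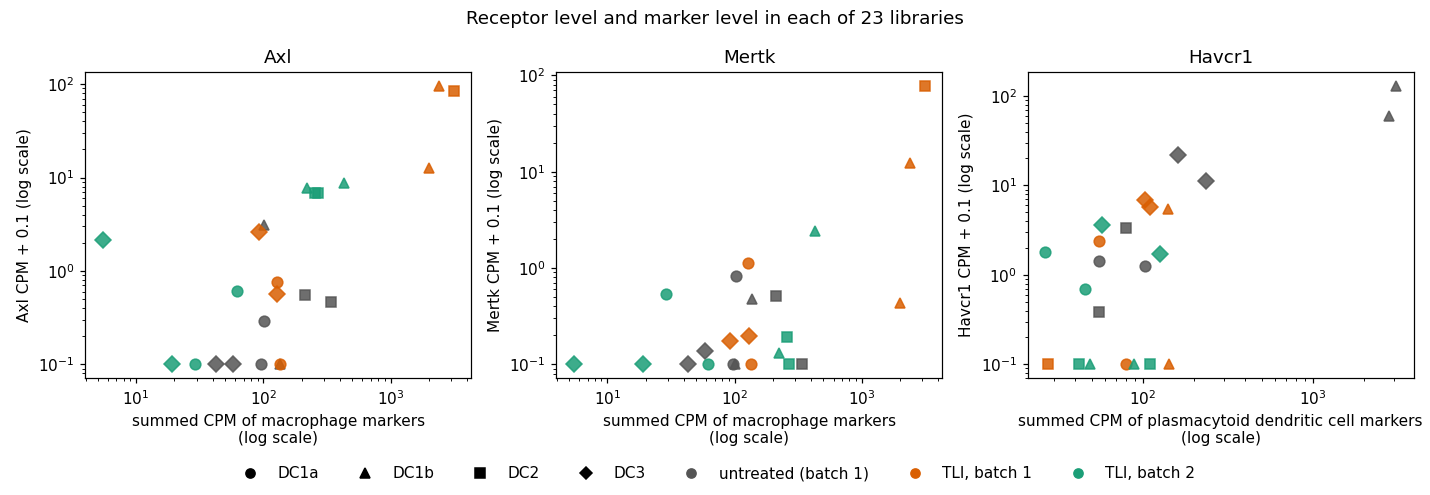
Levels of Axl and Mertk against the summed level of 10 macrophage markers, and of Havcr1 against the summed level of 5 plasmacytoid DC markers, in the 23 libraries on log axes in CPM, with 0.1 added to each receptor level. TLI DC1b pool 1 and TLI DC2 pool 1 lie at the upper right for Axl (96.0 and 85.3 CPM) and Mertk (12.2 and 77.7 CPM), and the untreated DC1b libraries lie at the upper right for Havcr1.

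Between TLI and untreated mice, 0 of 32 tests of a member in a subset passed with edgeR, 9 had an unadjusted p under 0.05 and 6 passed with DESeq2. At an unadjusted p under 0.05 were 9.76% of all genes in DC1a, 12.4% in DC1b, 9.01% in DC2 and 10.4% in DC3. Of all genes edgeR called 0.0102% in DC1a, 0.413% in DC1b, 0.0612% in DC2 and 0.0255% in DC3, while DESeq2 called 4.05%, 6.99%, 5.04% and 4.04% of its genes. In 8 of the 32 cases the libraries of TLI and untreated mice did not overlap, with 0 of the 8 genes in DC1a, 4 in DC1b, 3 in DC2 and 1 in DC3. Of all genes tested, 13.6% in DC1a, 20.9% in DC1b, 25.2% in DC2 and 14.5% in DC3 did not overlap. Lower in TLI were Havcr1 in DC1b, DC2 and DC3 and Havcr2 in DC2. Higher in TLI were Timd4, Axl and Cd36 in DC1b and Axl in DC2. For Timd4 the lowest TLI DC1b library, at 0.111 CPM, lay below the 0.141 CPM floor of an untreated DC1b library. Its separation from the untreated libraries is therefore not resolved.

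Havcr1 in untreated DC1b was 71.4-fold above TLI DC1b, and at least 858-fold above it without TLI pool 1. Its fitted difference was -5.77 (SE 2.06, adjusted p = 0.273), and over 31 alternatives the adjusted p ran from 0.000959 to 0.629 with 4 past the threshold, among them the fit without TLI DC1b pool 1 (adjusted p = 0.0327). By the means Havcr1 was at least 13.7-fold higher in untreated mice in DC2 and 3.81-fold higher in DC3. The untreated DC2 mean rests on pool 2 at 3.22 CPM, since pool 1 measured 0.285 CPM against a TLI DC2 floor of up to 0.128 CPM. Timd4 in DC1b was at least 50.05-fold higher in TLI mice by the means (adjusted p = 0.189), and at least 20.6-fold higher without TLI pool 2. The TLI mean rests largely on pools 1 and 2 at 6.54 and 19.5 CPM, and pools 3 and 4 measured 0.111 and 2.08 CPM. Of 31 alternatives 2 passed, with adjusted p from 0.000101 to 0.66. Axl was 20.5-fold higher in TLI DC1b (5.04, SE 2.55, adjusted p = 0.440) and 81.3-fold higher in TLI DC2 (6.74, SE 2.83, adjusted p = 0.494). Without TLI pool 1 these folds were 6.29 and 16.8. Havcr2 in DC2 was 4.01-fold higher in untreated mice (-1.71, SE 0.75, adjusted p = 0.509).

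Cd36 in DC1b was 1.92-fold higher in TLI mice by the means, 368 ± 163 (SD, n = 4) against 192 ± 37.9 CPM (SD, n = 2), with a fitted difference of 2.14 (SE 0.82, adjusted p = 0.307). Within batch 1 the TLI DC1b mean was 230.4 CPM, near the untreated 192 CPM, and in batch 2 it was 506 CPM. All subsets share the batch term, and Cd36 was lower in batch 2 than in batch 1 in the other TLI subsets. The fitted difference of Cd36 in DC1b is therefore no measure of size. In DC3 the fitted difference of Cd36 was 2.22 (SE 0.77, adjusted p = 0.369) and in DC1a 1.42 (SE 0.75, adjusted p = 0.554), with overlapping libraries in both. For Cd1d1 the fitted difference was 1.34 in DC1b (SE 0.55, adjusted p = 0.339) and 0.79 in DC1a (SE 0.53, adjusted p = 0.629). By the means Cd1d1 was 1.30-fold higher in TLI DC1b and 1.20-fold higher in TLI DC1a, with overlapping libraries in both. These fitted differences also depend on the shared batch term. Batch 2 holds TLI libraries only, so the batch term in these fits came from TLI pools. All TLI batch 1 libraries carried erythroid and platelet markers above all untreated libraries, as given above, and the part of these in the differences was not tested. Whether the subsets differed from each other to another extent in TLI than in untreated mice was tested as an interaction, in which 0 of the 8 genes passed with edgeR or with DESeq2 and 0 had an unadjusted p under 0.05, beside 0.0357% of all genes called by edgeR and 2.90% by DESeq2 (lowest adjusted p 0.663, for Timd4).

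**Figure D4:**
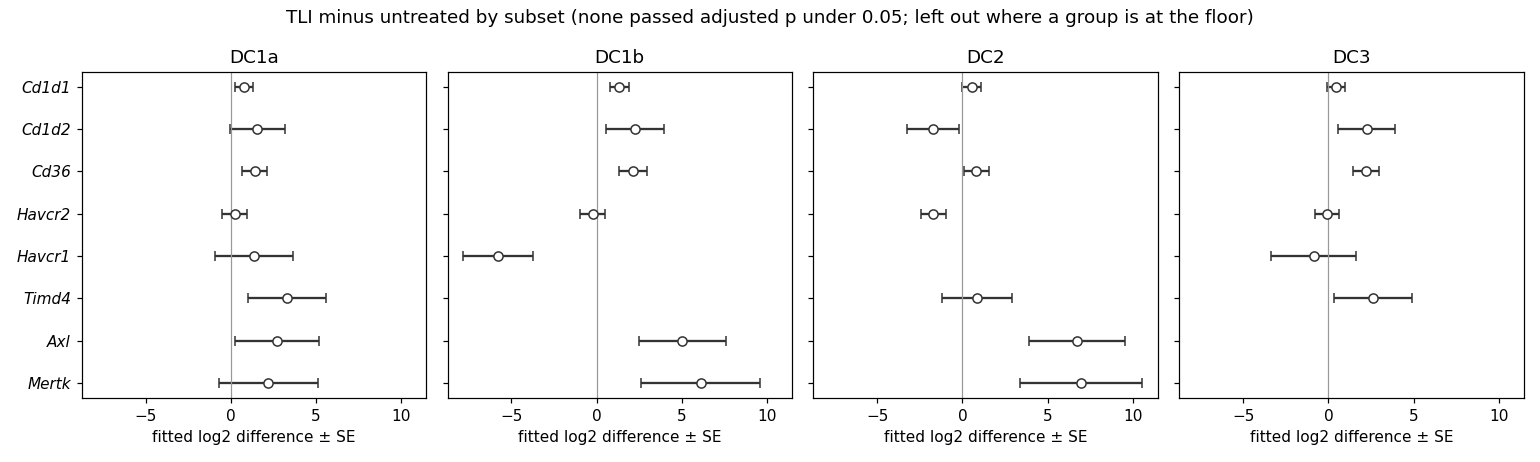
Fitted log2 differences of TLI from untreated mice for the 8 genes in the 4 subsets, with bars of 1 standard error. Points are left out where a group was at the floor in all its libraries, and none of those shown passed the test. Havcr1 in DC1b lies at -5.77 and Axl in DC2 at 6.74.

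Genes that work with CD1d or with the uptake receptors were taken as 7 lists of 61 genes, of which 56 were tested. Among untreated subsets 9 of 56 passed (16.1%, beside 2.37% of all genes) and among TLI subsets 8 of 56 (14.3%). Between TLI and untreated mice 0 passed with edgeR in any subset, while 10 in DC1a, 13 in DC1b, 7 in DC2 and 7 in DC3 had an unadjusted p under 0.05. These are 17.9%, 23.2%, 12.5% and 12.5% of the 56, beside 9.76%, 12.4%, 9.01% and 10.4% of all genes. In TLI mice 9 of the list genes were higher in DC2 than in DC1a, beside 2.10% of all genes, and 1 was lower. In DC1b 7 were higher than in DC1a, beside 1.22% of all genes. Macrophage markers summed to 222 to 2402 CPM in TLI DC1b and 257 to 3128 CPM in TLI DC2 against 28.9 to 135 CPM in TLI DC1a, and monocyte and neutrophil markers were higher there too, as given above. Their part in the list results was not tested.

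Of the 16 genes for assembly, traffic and lipid loading of CD1d, 3 passed among untreated and 1 among TLI subsets. Ap3s1, a subunit of the AP-3 adaptor that carries CD1d to lysosomes, was lower in untreated DC2, at 16.97 ± 1.60 CPM (SD, n = 2), than in DC1a at 98.6 ± 5.23 CPM (-2.74, SE 0.34, adjusted p = 0.000365). Ctsl, the lysosomal protease cathepsin L, passed among untreated subsets (adjusted p = 0.0199), with 995 ± 375 CPM in DC1b against 14.4 ± 6.12 in DC1a. Ctsl measured 49.4 ± 44.2 CPM in TLI DC1b (SD, n = 4), and plasmacytoid DC markers were likewise high in untreated DC1b only, at 2817 and 3083 CPM against at most 234 CPM in the other libraries. Their part in the Ctsl level was not tested. The median fitted difference of these 16 genes between TLI DC2 and DC1a was -0.29, beside 0.02 over all genes.

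Of 8 further phosphatidylserine receptors tested from 11, 2 passed in each treatment. Cd300lf was higher in TLI DC2, at 42.2 ± 40.6 CPM (SD, n = 3), than in TLI DC1a at 2.01 ± 1.72 CPM (4.19, SE 0.87, adjusted p = 0.0104). Cd300lb passed among TLI subsets (adjusted p = 0.00326), with 57.8 ± 50.4 CPM in DC1b and 35.6 ± 4.86 in DC2 against 0.0339 ± 0.0679 in DC1a. Scarf1 did not pass (adjusted p = 0.108). Of the 7 bridging proteins and their integrins, 0 passed among untreated (2 at an unadjusted p under 0.05) and 2 among TLI subsets. Itgb3 passed among TLI subsets (adjusted p = 0.0473), at 0 CPM in all TLI DC1a libraries and 7.80 ± 9.02, 8.81 ± 7.93 and 6.83 ± 2.83 CPM in DC1b, DC2 and DC3. Itgb5 passed between DC1b and DC1a of TLI mice (adjusted p = 0.0325), with 12.9 ± 2.09 CPM in DC1b and 0 in every DC1a library. Pros1, which encodes protein S, was higher in TLI DC2 at 23.8 ± 7.93 CPM than in DC1a at 0.244 ± 0.357 CPM (6.50, SE 1.66, adjusted p = 0.0384).

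Of 6 scavenger receptors tested from 7, 2 passed in each treatment. Lrp1 was higher in TLI DC2 at 44.1 ± 22.7 CPM than in TLI DC1a at 1.51 ± 0.925 CPM (4.69, SE 1.02, adjusted p = 0.0173). Msr1 was higher in TLI DC2 at 74.1 ± 25.6 CPM than in TLI DC1a at 0.170 ± 0.288 CPM (8.35, SE 1.89, adjusted p = 0.0232), and Olr1 did not pass (adjusted p = 0.0759). Unlike Cd36, which was lower in TLI DC2 than in DC1a, the scavenger receptors named here as passing were higher there. The median difference of the 6 between TLI DC2 and DC1a was 5.35 as fitted and 3.76 with a gene at the floor in a group set to its bound, beside 0.02 over all genes.

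Of 8 engulfment genes tested from 9, 2 passed among untreated and 0 among TLI subsets, where 1 had an unadjusted p under 0.05. Elmo1, which activates Rac at the phagocytic cup, was higher in untreated DC2 at 999 ± 295 CPM than in DC1a at 132 ± 6.07 CPM (2.71, SE 0.47, adjusted p = 0.00476). Rac2 was higher in untreated DC1b at 813 ± 492 CPM than in DC1a at 126 ± 43.1 CPM (2.41, SE 0.43, adjusted p = 0.0107), and Dock2 did not pass (adjusted p = 0.353). Of the 4 TIM-3 ligands and adaptors, Ceacam1 passed among TLI subsets (adjusted p = 0.00721), with 65.0 ± 24.8 CPM in DC1b and 66.9 ± 35.9 in DC2 against 3.66 ± 5.88 in DC1a. Lgals9 (adjusted p = 0.308) and Hmgb1 did not pass. None of the 7 lipid-sensing nuclear receptors passed in either treatment with edgeR, with 1 among untreated and 4 among TLI subsets at an unadjusted p under 0.05, and the lowest adjusted p were 0.181 for Rxrb, 0.182 for Pparg and 0.223 for Rara.

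For each member the genes most alike were those with the highest Pearson correlation of log2 CPM over the 23 libraries, among 10140 genes with a mean of at least 5 CPM. The libraries share batches and subsets, so the values are descriptions. Cd1d1 was most like Cxcl16 (r = 0.880), Tmem134 (r = 0.873) and Creg1 (r = 0.861), and Creg1 was also the gene most like Cd36 (r = 0.839). Havcr2 was most like Rasgrp3 (r = 0.824), Havcr1 most like Pacsin1 (r = 0.788), and Cd1d2 most like Cd9 (r = 0.863). Timd4 was most like Nkg7 (r = 0.789) and Gzma (r = 0.777), genes of cytotoxic lymphocytes, followed by Pqlc1 (r = 0.773). Axl was most like C1qa (r = 0.811) and Lyz1 (r = 0.811), genes of macrophages, followed by Mettl9 (r = 0.799). Mertk was most like Tnfsf13 (r = 0.691), Chil3 (r = 0.663) and Ngp (r = 0.658), the last from the monocyte and neutrophil markers.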

How the data were processed

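RNA of sorted spleen DCs was copied and amplified with a SMARTseq v4 kit and sequenced as paired reads. The authors trimmed reads with Trimmomatic, aligned them to GRCm38 with HISAT2 and deposited estimated counts per gene from StringTie, whole numbers without normalization. DESeq2 is also named in the submitters' processing notes. The reference is not of the BALB/c strain, and its effect on mapping was not tested. Symbols of 47224 of 47729 genes came from GENCODE M21. The 23 libraries were grouped by subset and treatment from the labels, and no column was left unused.

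The counts were fitted with edgeR 4.0.16 (R 4.3.3) in 1 quasi-likelihood model with 8 groups and batch, after TMM scaling and edgeR's filter on low counts, with Benjamini-Hochberg adjustment over 19597 genes and a threshold of 0.05. Folds come from mean CPM, with 3 counts as the floor, and bounds use the highest floor among the libraries of the lower group. A fitted difference against a group at 0 depends on the prior count and is no measure of size. Alternatives used DESeq2 1.42.0, limma 3.58.1, other scalings, filters, batches, blocks and left-out libraries, and 1 was added after the data were seen. Scripts were tested on simulated data.

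The 8 genes, the lists and the tests were chosen with earlier results of these data known. All 8 genes are named, together with up to 3 genes per list with the smallest adjusted p among subsets and the 3 genes most like each member, of which some are printed. The result of 1 list gene is not reported here. Pools of a treatment share mice across subsets by their labels, which makes the pool a pairing. Residuals of libraries of the same pool correlated at -0.162 to 0.0673 in TLI mice and at -0.00585 to 0.0159 in untreated mice.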

Additional observations from a re-analysis of the deposited data

Results flagged for a closer look

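In each group of 4 libraries the highest or lowest value was set against the range of the group by Dixon's criterion, for 24 groups in all, and 3 stood apart. Chance gives about 1 in 20 only for independent values of a normal distribution. CPM of pools from different batches need not be such values, so the number of flags is not compared with that rate. Cd1d1 in TLI DC1b was 189.6 CPM in pool 2 against 59.98 to 74.6 CPM in the other pools. Havcr1 in TLI DC1b was 5.29 CPM in pool 1 and 0 in the other pools, where any value above 0 would have stood apart. Axl in TLI DC1b was 96.0 CPM in pool 1 against 7.62 to 12.5 CPM in the others.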

How the results depend on the processing

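Fits without a batch term or on batch 1 alone left 0 of the 8 genes past the threshold among TLI subsets (1 in the reported fit) and 0 of 48 pair tests in TLI mice (3 in the reported fit). The cause was not tested, except that batch 1 alone has fewer samples. Among TLI subsets 2 passed with DESeq2 size factors, 3 without a filter, 3 with DESeq2's test and 3 without the pool 1 libraries of DC1b and DC2. DESeq2's test called 12.8% of its genes among TLI subsets. For the alternatives other than DESeq2's test, shares over all genes are not given, so their counts of members cannot be set against them. In pairs of TLI subsets 7 passed without a filter, 15 with DESeq2 and 1 in separate fits. Among untreated subsets (0 reported) 1 passed without a filter and 2 with DESeq2, and in their pairs (0 reported) 4 with DESeq2 and 1 in separate fits. Of TLI against untreated mice (0 reported) 6 passed with DESeq2, 2 with TLI batch 2 against untreated mice, 1 without the pool 1 libraries and 2 with the pool as a random replicate block in limma (correlation 0.00267). A fixed pool block could not be fitted there, since treatments share no mice. In the fits among subsets the pool block left the counts within 1.5 times of those reported and changed the call of Cd36 alone among the called results. Leaving out 1 library gave 1 to 3 genes among TLI subsets, 1 to 6 pair tests in TLI mice (1 without any TLI DC1a library or without DC2 pool 1 or 3, 6 without DC1b pool 1) and 0 to 1 tests of TLI against untreated mice, where a lone sample was assumed to vary like the other groups. The interaction gave 0 in every fit made. With TMM-scaled CPM 7 of the 8 members were highest in the same group, while Axl moved from TLI DC2 (33.0 CPM, DC1b 31.2) to TLI DC1b (34.3 TMM-scaled CPM, DC2 30.6), and no called value changed sign. Genes with 3 counts or fewer in every library of a group have bounds in place of folds.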
